A study of Mus musculus with 3 samples.

Results

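The cells described are C1q-low monocytes and macrophages of the mouse ovary. C1q is the recognition molecule that starts the classical complement cascade, and its 3 chains are encoded by C1qa, C1qb and C1qc. The authors deposited a cell type name for every cell, and members were the cells named Macrophage/Monocyte I whose UMIs (unique molecular identifiers, counts of captured RNA molecules) of the 3 genes summed to fewer than 5. This rule took 532 of 14353 cells, which is 25.4% of the 2094 cells with that name. Members were thus chosen by their measured C1q UMIs, and their low C1q is not a finding.

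The study used female C57BL/6 mice in 3 conditions: young mice of 3 months, aged untreated mice, and aged mice given metformin in drinking water at 350 mg/kg/day for 6 months from 14 months of age. The age of the untreated aged mice is not stated for these cells. Each group had 5 mice, and the left ovaries of 3 were pooled, dissociated with enzymes for 30 min at 37 °C, passed through a 40 µm strainer and flow-sorted, the gate not being given. Cells were marked by condition with MULTI-seq tags (lipid-anchored DNA labels) and loaded as 3 mixed 10x Genomics 3′ libraries, called pools A, B and C. Every condition is thus 1 cell suspension. How its cells were divided over the pools is not stated, the pools were taken as technical repeats, and no difference between conditions was tested. All intervals are 95% intervals for counting error only. They understate the spread: between pools of 1 condition, the interval of the log2 ratio excluded 0 for 8.72% to 16.9% of genes.

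Monocytes are made in bone marrow, circulate in blood and enter tissues, where they can become macrophages or dendritic cells. Classical mouse monocytes carry Ly6C and the chemokine receptor CCR2, which draws them to inflamed tissue. Nonclassical monocytes carry little Ly6C, express CX3CR1 and patrol the inside of blood vessels. Resident macrophages of many tissues make large amounts of C1q, take up dying cells and are long-lived. In the ovary, macrophages clear regressing follicles and corpora lutea.

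The limit of 5 UMIs does not fall in a gap of the C1q distribution. Of the 532 cells, 444 had no C1q UMI, 65 had 1, and 7, 9 and 7 had 2, 3 and 4. Above the limit, 7 cells had 5 UMIs and 6 had 6, whereas the median of the 1562 C1q-positive cells was 95 UMIs. The 16 members with 3 or 4 UMIs had 2824 CPM of Plac8 (the UMIs of a gene scaled to an equal total per group), and the 13 cells just outside, with 5 or 6, had 1293 CPM. Pf4, a chemokine gene of resident macrophages, had UMIs in 18.8% of the former and 46.2% of the latter. After each cell was thinned at random to 1000 UMIs, 4.43% of the members and 4.39% of T cells, which should lack C1q, held a C1q UMI. Without thinning these shares were 16.5% (median depth 4402 UMIs) and 9.03% (median depth 2018 UMIs). The rule limits the C1q UMIs of members and not those of T cells. Nothing about the source of the members' C1q UMIs is therefore read from these shares.

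The 4 markers by which the cells were proposed were higher in members than in C1q-positive cells. Because they were chosen for these cells, their height is no independent support for the label. None of the 4 was detected in 12.8% of members. Plac8, which encodes a small cysteine-rich protein of leukocytes, reached 3061 CPM in the members and 60.0 CPM in the C1q-positive cells. Chil3, the chitinase-like protein Ym1, stood at 838 CPM and 13.1 CPM, and was detected in 52.6% of members. Hp, the haemoglobin-binding haptoglobin, stood at 459 CPM and 3.65 CPM, and at 930 CPM in neutrophils. Ifitm6, an interferon-induced transmembrane protein gene, stood at 498 CPM and 14.3 CPM. Lyz2, the lysozyme of myeloid cells, had UMIs in 98.9% of members. On GRCm38, Chil3 lies on chr3:106147554-106167564 and Plac8 on chr5:100553725-100572245. Ifitm6 lies on chr7:141015699-141017924 and Hp on chr8:109575128-109579172. The 3 C1q genes are neighbours on chr4, from C1qb at 136880129 to the end of C1qa at 136898803.

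Several defining markers of other cells had no UMI in members, and summed levels of their lists are given here. The neutrophil genes Retnlg, Ngp and Camp had no UMI in any member. The whole neutrophil list of 12 genes, 9 of them detected, summed to 1359 CPM in young, 1687 CPM in aged and 592 CPM in metformin members, and most of that was Cxcl2, which macrophages also express. Cd79a, Ms4a1 and Ighd of B cells also had none, although Ighm, the heavy chain of immunoglobulin M, had UMIs in 53.6% of members. The 9 listed genes of large peritoneal macrophages, which include Fn1 of the classical monocyte list, summed to 533, 967 and 950 CPM. The 8 listed T cell genes summed to 40.1 CPM, the 7 NK cell genes to 29.5 CPM and the 8 stromal fibroblast genes to 265 CPM. Among dendritic cell lists, the type 2 or monocyte-derived list summed to 306 CPM and the type 1 list to 88.9 CPM. The migratory list summed to 20.9 CPM and the plasmacytoid list to 375 CPM, with most UMIs (725) from Bst2, also an interferon gene. Over conditions the summed T cell level ran from 16.0 CPM with metformin to 53.1 CPM in young cells, and the fibroblast level from 211 CPM in aged to 299 CPM in young cells. At least 2 genes of the fibroblast list were found in 33 members, of the B cell list in 63 and of the T cell list in 9. The part of such cells in the differences below was not tested, apart from the values given without the subclusters they lead.

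Clustering of the members gave 8 subclusters, described by their leading genes, which defined them. Subcluster 1, with 219 cells, was classical monocyte-like. All 15 genes of the classical list were detected in it, as they were in subclusters 5, 6, 7 and 8. They summed to 14022 CPM in subcluster 1, although subcluster 8 had a higher sum of 16399 CPM. Subcluster 1 cells had 1245 CPM of Ccr2 and 732 CPM of Ly6c2, while Ly6c2 stood at 2900 CPM in subcluster 8. Subcluster 2, with 94 cells and a median of only 2347 UMIs, was nonclassical monocyte-like, with 8 of its 10 leading genes on that list. Ace, the angiotensin-converting enzyme, stood at 482 CPM there and Ear2, an eosinophil-associated ribonuclease, at 631 CPM, while Ccr2 stood at 202 CPM. Subcluster 3, with 60 cells, was led by Gpnmb, Spp1 and Fabp5, genes of lipid-handling and scar-associated macrophages. Osteopontin mRNA (Spp1) reached 15650 CPM there, and Plac8 only 246 CPM.

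The other subclusters were smaller or more uneven between conditions. Subcluster 7, with 88 cells, was led by Pf4 and the MHC class II genes H2-Eb1 and H2-Aa, although its cells had fewer than 5 C1q UMIs by the rule. H2-Aa reached 7441 CPM in it, and Ccr2 stood at 1009 CPM. Subcluster 8, with 21 cells, was led by the interferon-induced genes Ifit3, Ifit1 and Rsad2. Isg15, a ubiquitin-like protein induced by interferon, was found in 100.0% of its cells. These cells also had the highest classical monocyte sum of the 8 subclusters. Subcluster 6, with 29 cells, was led by Acod1, which makes itaconate, together with Dmkn and the chemokine genes Ccl7 and Ccl2. Subcluster 4, with 8 cells, was led by the lymphocyte genes Ccl5, Nkg7 and Trbc2 and had a median of 7453 UMIs. Subcluster 5, with 13 cells, was led by the fibroblast genes Dcn and Mgp and had a median of 7046 UMIs. These 2 were the deepest, and no doublet caller was run.

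**Figure D1:**
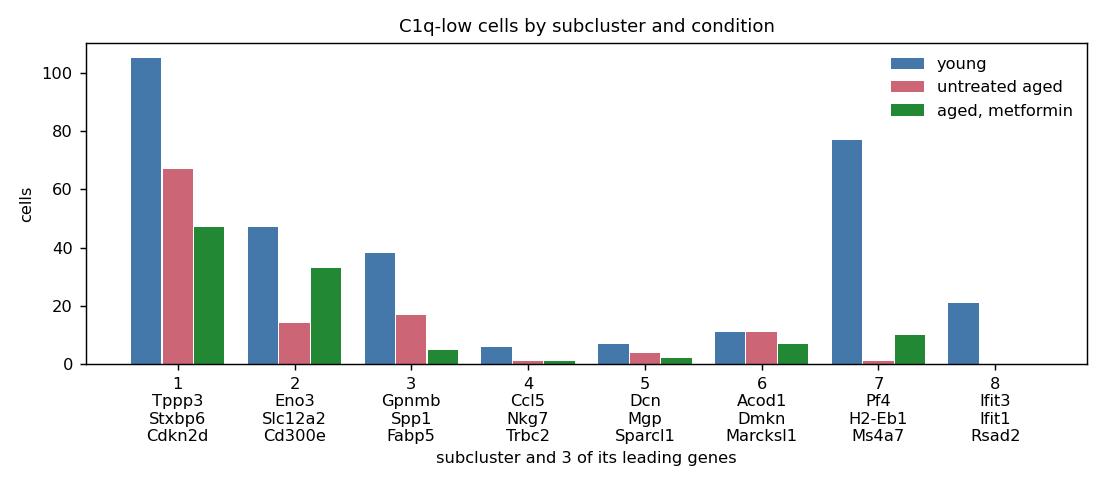
Number of C1q-low cells (vertical axis) in each of 8 subclusters, with 3 of its leading genes (horizontal axis), in young, untreated aged and metformin cells. Subcluster 7 holds 77 young cells and 1 aged cell, and all 21 cells of subcluster 8 are young.

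Young cells made up 105 cells of subcluster 1, aged cells 67 and metformin cells 47. Subcluster 2 held 47 young, 14 aged and 33 metformin cells. In it, pools A, B and C gave 2, 8 and 4 aged cells and 11, 8 and 14 metformin cells, so pool B held equal numbers. Subcluster 3 held 38, 17 and 5 cells. Subcluster 7 held 77 young cells, 1 aged cell and 10 metformin cells. The 21 young cells of subcluster 8 came from pools A, B and C as 2, 11 and 8. The genes that define the subclusters differ between the conditions, so these counts are a description of the mix and no difference in share is read from them. In the following, values for all members are joined by values within subcluster 1, or without subclusters 7 and 8, where these bear on a result. Both subsets were chosen after seeing the data.

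The abundance of C1q-low cells in young and untreated aged ovaries did not differ beyond counting error. Members were 4.09% of 7620 young cells (exact Clopper-Pearson interval 3.66% to 4.56%) and 3.86% of 2979 aged cells (3.20% to 4.62%). In pools A, B and C the share was 4.37%, 3.60% and 4.30% in young and 3.92%, 3.19% and 4.55% in aged cells, and the pools of the conditions overlapped. The ratio of aged to young was 0.943 (0.755 to 1.17). C1q-positive cells, by contrast, went from 17.5% to 2.95% of all cells, a ratio of 0.168 (0.134 to 0.209). Members accordingly made up 18.9% of young and 56.7% of aged Macrophage/Monocyte I cells, a ratio of 2.99 (2.40 to 3.72). Shares of sorted cells depend on the gate and on what the strainer let through, and numbers per ovary were not measured.

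With metformin, C1q-low cells were 2.80% of 3754 cells (2.29% to 3.38%), and the ratio to untreated aged cells was 0.725 (0.551 to 0.952). The pools did not all show it. Pools A, B and C gave ratios of 0.584, 1.002 and 0.654, and only that of pool A had an interval below 1 (0.358 to 0.941). Of Macrophage/Monocyte I cells, 43.4% were members with metformin, a ratio to aged of 0.766 (0.582 to 1.01).

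**Figure D2:**
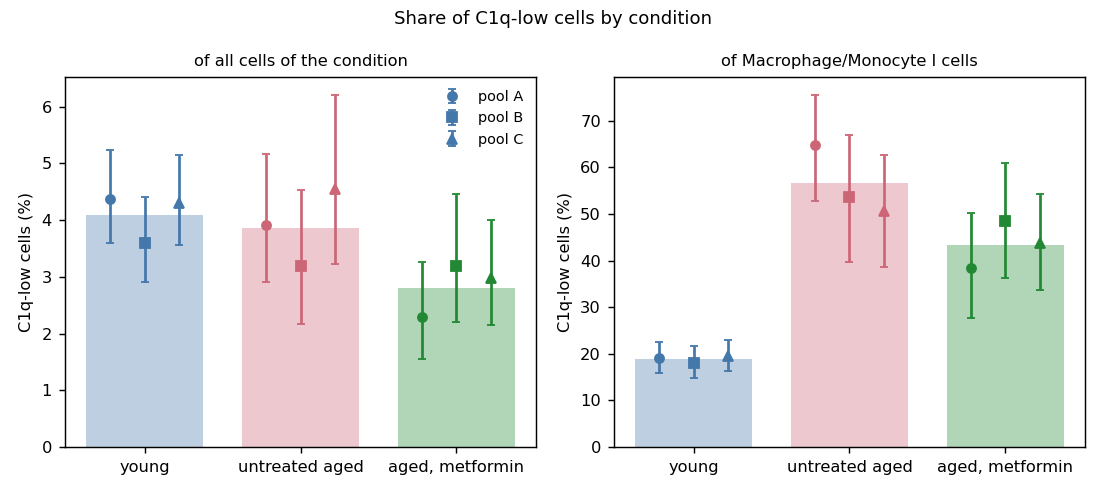
Share of C1q-low cells (vertical axis, percent) among all cells of a condition (left) and among Macrophage/Monocyte I cells (right). Bars give all pools together, symbols the pools with exact 95% intervals. The share of all cells is 4.09% in young, 3.86% in untreated aged and 2.80% in metformin cells.

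Genes were compared between conditions on UMIs summed over the members (1429948 young, 573939 aged and 437740 metformin UMIs) and scaled to CPM. A gene counted as higher or lower when its log2 ratio, with 1 UMI added to each count, was at or beyond 1 or -1, which is a size rule and not a test. Of 6907 genes with at least 20 UMIs in aged and young members together, 167 were higher in aged cells (2.42% of genes) and 265 were lower (3.84%). Of 5209 genes in metformin and aged members, 164 were higher with metformin (3.15%) and 113 were lower (2.17%). The median log2 ratio over all genes was 0.04 in both comparisons. The ratios and intervals given for single genes are without the added UMI. Between 4.54% and 11.5% of genes lay beyond the same 2-fold size between pools of 1 condition. Both comparisons use the same untreated aged cells, so a high or low aged value moves them in opposite directions.

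Untreated aged members had more RNA of classical monocyte genes. Of the 15 genes of that list, 13 were higher and 2 lower by sign, 6 of them higher by 2-fold or more, against 2.42% of all genes, with a median log2 ratio of 0.99. Among these were Chil3, Hp, F13a1, Vcan and Gsr. Chil3 stood at 536, 574 and 572 CPM in young pools A, B and C and at 1575, 2124 and 1348 CPM in aged pools. The pools did not overlap, and the log2 ratio was 1.54 (1.40 to 1.68). Hp stood at 256, 379 and 332 CPM in young and at 793, 747 and 638 CPM in aged pools, a log2 ratio of 1.19 (0.99 to 1.38). Ifitm6 was at 336, 483 and 350 CPM in young and at 630, 835 and 638 CPM in aged pools (log2 ratio 0.82, 0.63 to 1.01). Plac8 was at 2481, 3464 and 2730 CPM and at 3926, 3890 and 3763 CPM (log2 ratio 0.43, 0.35 to 0.50). These 4 genes are the markers by which the cells were proposed.

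The 2 genes that define the classical subset by surface protein did not follow. Ly6c2 stood at 580 CPM in young and 524 CPM in aged cells (log2 ratio -0.15, -0.34 to 0.05). Ccr2 stood at 878 and 807 CPM (log2 ratio -0.12, -0.28 to 0.03). Both intervals include 0. Within subcluster 1 the median of the classical list was 0.47 and 12 of 15 genes were higher, with Chil3 at 1081 CPM in young and 1908 CPM in aged cells (log2 ratio 0.82, 0.644 to 0.996).

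The share of cells holding all 4 markers Chil3, Plac8, Ifitm6 and Hp was 19.6% of young, 53.0% of aged and 29.5% of metformin cells. At an equal depth of 1000 UMIs per cell it was 2.95% (1.36% to 5.53%), 15.9% (9.72% to 24.0%) and 6.93% (2.83% to 13.8%), with 7, 2 and 4 shallower cells left out. The intervals of young and aged cells did not overlap, and that of metformin cells overlapped both. None of the 4 was detected in 26.2% of young, 11.5% of aged and 19.8% of metformin cells at this depth (16.3%, 3.48% and 12.4% without thinning).

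**Figure D3:**
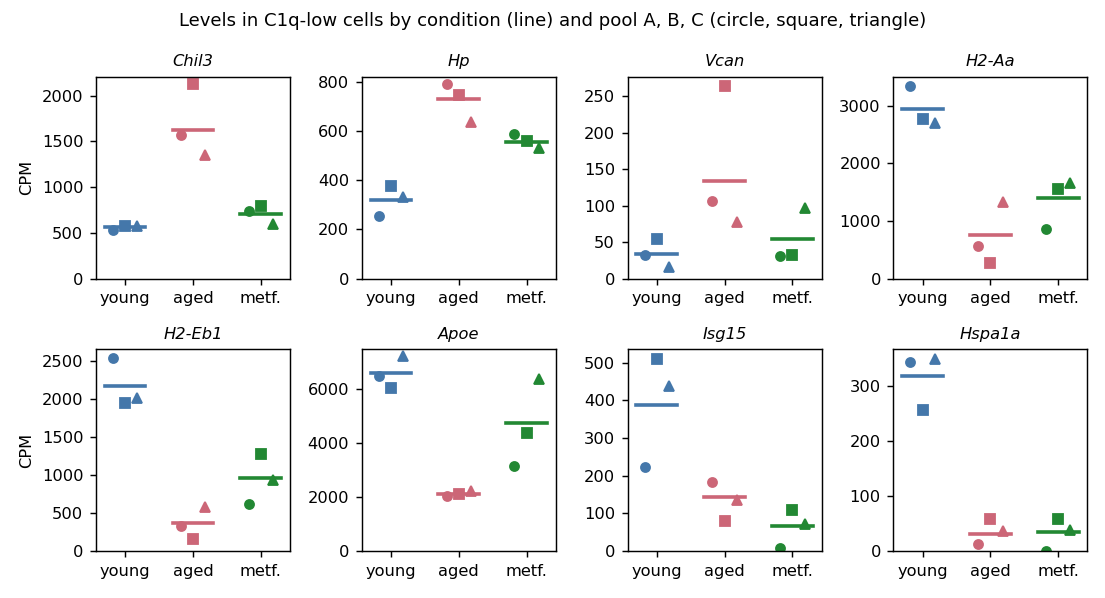
Levels of 8 genes in C1q-low cells (vertical axis, CPM, from 0) in young, untreated aged and metformin cells; lines give all pools together and symbols the pools. Chil3 and Hp are highest in the aged pools, while H2-Aa, H2-Eb1 and Hspa1a are highest in the young pools.

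Of the genes named as higher in aged members, Nxpe4 had the interval farthest from 0. It had 3 UMIs in young and 37 UMIs in aged cells, or 2.10 and 64.5 CPM (log2 ratio 4.94, 3.28 to 7.28), and metformin cells had 82.2 CPM. Its aged pools held 69.5, 65.9 and 57.0 CPM and its young pools 2.05, 4.53 and 0 CPM. Prtn3, the granule protease proteinase 3 of immature myeloid cells, had 9 UMIs in young and 41 in aged cells (log2 ratio 3.51, 2.44 to 4.73), in 2.88% and 20.9% of cells. The 3 genes of the myeloid progenitor list that the count table holds, Prtn3 among them, summed to 9.79, 74.9 and 13.7 CPM in young, aged and metformin cells. Casp4, the caspase that senses cytosolic lipopolysaccharide, had 15 and 40 UMIs (log2 ratio 2.73, 1.84 to 3.70). In young and aged ovaries it also rose in fibroblasts (57.6 and 91.0 CPM), neutrophils (38.3 and 160 CPM) and Dendritic cell I (13.1 and 28.8 CPM). It fell in C1q-positive cells (35.5 and 25.6 CPM) and in B cell I (41.9 and 31.3 CPM). Vcan, the matrix proteoglycan versican, stood at 33.6 and 134 CPM (log2 ratio 1.999, 1.46 to 2.55). Dmkn, dermokine, stood at 16.8 and 83.6 CPM (log2 ratio 2.32, 1.58 to 3.09).

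Several of these ratios held within subcluster 1 and others did not. Within it, the log2 ratio was 4.20 (2.21 to 7.32) for Nxpe4, 3.11 (1.86 to 4.64) for Prtn3 and 3.56 (1.86 to 5.93) for Casp4. For Dmkn it was 0.19 (-1.18 to 1.52). Racgap1, which acts in the division of the cell body, had 8 UMIs in young and 18 in aged members (log2 ratio 2.49, 1.21 to 3.90). Gdf15, a stress-induced hormone gene, stood at 96.5 and 267 CPM (log2 ratio 1.47, 1.12 to 1.81) from 8.97% and 8.70% of cells. In subcluster 1 it had 6 UMIs in young and 0 in aged cells.

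MHC class II genes were lower in aged members. Class II molecules present peptides from engulfed proteins to helper T cells, Cd74 encodes their invariant chain and Ciita the factor that switches them on. All 7 measured genes of the list were lower by sign and 5 by 2-fold or more, against 3.84% of all genes, with a median log2 ratio of -1.63. H2-Eb1 stood at 2531, 1950 and 2014 CPM in young pools and at 331, 161 and 575 CPM in aged pools, which did not overlap (log2 ratio -2.54, -2.75 to -2.34). H2-Aa was likewise apart, with 3341, 2768 and 2706 CPM against 573, 264 and 1332 CPM (log2 ratio -1.96, -2.11 to -1.82). H2-Ab1 and Cd74 had log2 ratios of -2.01 (-2.18 to -1.85) and -1.63 (-1.72 to -1.55). Without subcluster 7 the list's median was -0.57. Without subclusters 7 and 8 it was -0.56, no gene was lower by 2-fold, and H2-Eb1 had a log2 ratio of -0.94 (-1.18 to -0.71). Within subcluster 1 the median was 0.05, and H2-Eb1 was higher in aged cells (log2 ratio 0.72, 0.35 to 1.09). C1q-positive cells went the other way, with 5397 CPM of H2-Eb1 in young and 7786 CPM in aged ovaries. In Dendritic cell I it stood at 8996 and 7200 CPM.

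Resident macrophage genes went the same way. All 10 measured genes of that list were lower in aged members and 5 by 2-fold or more (Pf4, Mrc1, Stab1, Apoe and C3ar1), against 3.84% of all genes, with a median of -1.20. Lyve1, Timd4 and Cd209f of this list had no UMI. Apoe, the lipid carrier apolipoprotein E, stood at 6490, 6069 and 7224 CPM in young and at 2029, 2117 and 2224 CPM in aged pools (log2 ratio -1.65, -1.73 to -1.56). Without subclusters 7 and 8 the median was -0.16, with 6 of 9 genes lower. The 16 genes of the list summed to 7823 CPM in young, 2709 CPM in aged and 5787 CPM in metformin members, and to 26488 CPM in the C1q-positive cells.

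Interferon-induced genes were lower in aged members as well. Of 16 measured genes, 14 were lower by sign and 7 by 2-fold or more (Isg15, Ifit1, Ifit2, Ifit3, Irf7, Rsad2 and Cxcl10), against 3.84% of all genes, while Cxcl9 was higher by 2-fold from UMIs in 1.74% of aged cells. The median was -0.81, with Ifit2 taken at its bound or not. Ifit2, whose protein binds viral RNA, had 93 UMIs in young and 0 in aged cells, a log2 ratio of -3.64 or lower when 3 UMIs over the group stand for 0. Ifit3 had 148 and 4 UMIs (log2 ratio -3.89, -5.79 to -2.51). Isg15 stood at 223, 510 and 438 CPM in young and at 184, 80.6 and 135 CPM in aged pools (log2 ratio -1.44, -1.79 to -1.10). The groups did not overlap, though pool A came close. Without subclusters 7 and 8, Isg15 had a log2 ratio of -0.27 (-0.67 to 0.12), Ifit3 had 21 and 4 UMIs, and the list's median was -0.31, with 1 of 13 genes lower by 2-fold. Within subcluster 1 that median was -0.39, with 10 of 12 genes lower. Other cells of aged ovaries also had less Isg15. It stood at 322 and 33.2 CPM in T cells, at 104 and 19.2 CPM in Dendritic cell I and at 94.4 and 74.8 CPM in C1q-positive cells of young and aged ovaries. Ifit3 stood at 138 and 9.77 CPM in T cells and at 40.7 and 12.8 CPM in C1q-positive cells, but at 0 and 7.84 CPM in B cell I.

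Sequences before the start sites of these 2 gene groups are shown because their genes were lower together. They are from RefSeq on GRCm38.p6, written 5′ to 3′ on the gene's strand, with capitals for the letters searched on both strands. For interferon genes the letters were TTTCNNTTTC, the core of the interferon-stimulated response element. Of 13 of the 16 listed genes that were matched, 7 had it within 250 bases before to 50 bases after a start site. Counted by promoter, 7 of the 15 promoters of the list had it, as had 3.44% of all 32851 promoters.
Isg15, chr4:156200871-156200900: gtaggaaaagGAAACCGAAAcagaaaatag
Ifit1, chr19:34640794-34640823: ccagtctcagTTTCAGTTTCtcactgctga
Ifit3, chr19:34583397-34583426: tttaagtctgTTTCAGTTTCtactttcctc
Rsad2, chr12:26456553-26456582: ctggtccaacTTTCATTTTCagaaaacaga
In Isg15 and in Bst2, another gene of the list, copies overlap. For MHC class II genes the letters were CTGATTGG, the Y box of class II promoters, found in 3 of 5 matched genes. Counted by promoter, they were in 3 of the 6 promoters of the list and in 4.10% of all promoters.
H2-Eb1, chr17:34305795-34305822: tcctttgatgCTGATTGGctcccagcac
H2-Aa, chr17:34287857-34287884: agagaattttCTGATTGGttctggcgag
A match describes the letters only. Isg15, Ifit1 and H2-Eb1 thus carry them 63 to 72, 76 to 85 and 55 to 62 bases before the start.

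The heat shock genes Hspa1a and Hspa1b were lower in aged members, whereas Hsp90aa1 (log2 ratio -0.34) and Dnajb1 (-0.16), also of the stress list, were not lower by 2-fold. Hspa1a and Hspa1b encode near-identical HSP70 proteins, so that UMIs could be split between them. Hspa1a stood at 344, 256 and 350 CPM in young pools and at 12.3, 58.6 and 36.3 CPM in aged pools (log2 ratio -3.35, -4.11 to -2.67). Hspa1b had 273 and 6 UMIs (log2 ratio -4.19, -5.65 to -3.05). The pools of young and aged cells did not overlap for either gene, and within subcluster 1 the log2 ratio of Hspa1a was -3.17 (-4.07 to -2.38). Other cells of aged ovaries also had less Hspa1a. It stood at 378 and 171 CPM in C1q-positive cells, at 356 and 83.3 CPM in Dendritic cell I and at 225 and 160 CPM in fibroblasts of young and aged ovaries. The whole list of dissociation and immediate early genes, these 2 included, had 15 of 19 genes lower and a median of -0.26, with no other gene lower by 2-fold. A part of the dissociation in these values was not tested.

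Ctse, the endosomal protease cathepsin E, had 73 UMIs in young members, spread over 21.2% of cells, and 0 in aged and in metformin members. Taking 3 UMIs for 0, its log2 ratio in aged cells was -3.29 or lower. In pools A, B and C the young level was 57.3, 52.1 and 44.0 CPM. Ctse was also at 34.8 CPM in young C1q-positive cells and at 0 in those of aged mice. In T cells it stood at 66.8 and 1.95 CPM, in NK cells at 58.6 and 4.01 CPM and in B cell I at 129 and 11.8 CPM. Ctse was thus low in each of these aged immune classes. Chil1, a chitinase-like gene related to Chil3, had 63 UMIs in young and 0 in aged members (log2 ratio -3.08 or lower), while neutrophils had 119 CPM in young and 150 CPM in aged ovaries. Mgat4a, a glycosyltransferase gene, had 38 and 0 UMIs (log2 ratio -2.35 or lower).

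**Figure D4:**
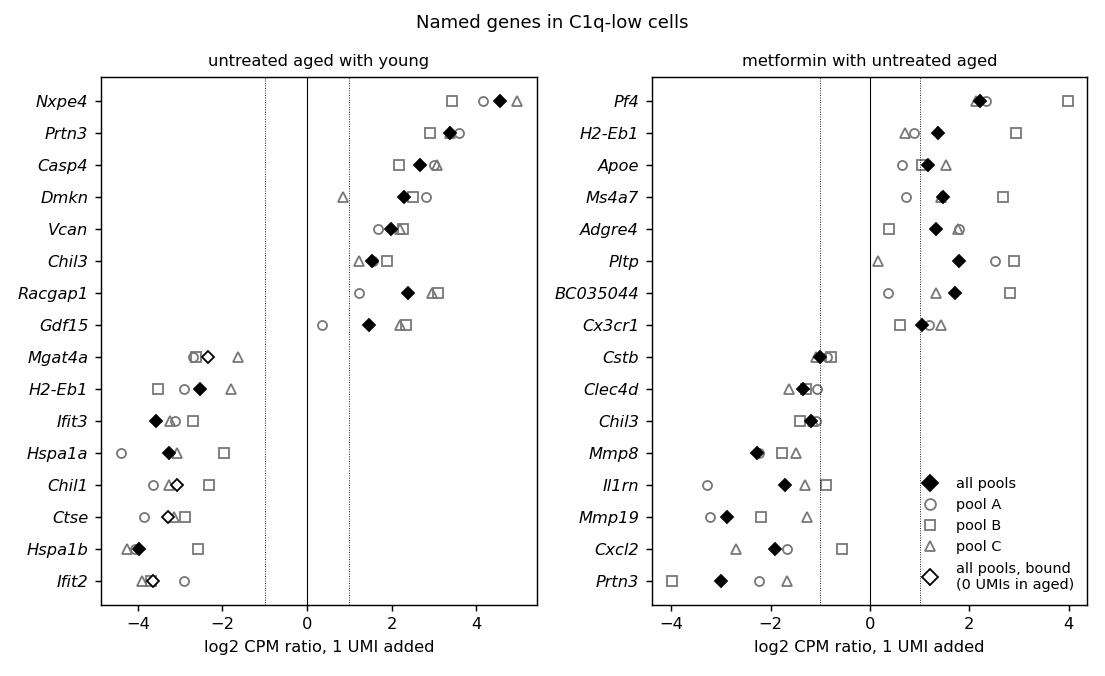
Log2 CPM ratio (horizontal axis, 1 UMI added) of the genes named by the ranking rule (vertical axis), for aged with young (left) and metformin with untreated aged (right) C1q-low cells. Filled diamonds give all pools, open diamonds a bound for genes with 0 UMIs in aged cells, symbols the pools and dotted lines 2-fold. Nxpe4 lies farthest right on the left side and Prtn3 farthest left on the right side.

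Lists of metabolism and of MHC class I had smaller medians. Of the 13 genes encoded in mitochondrial DNA, 13 were higher in aged cells, with a median of 0.35 and none by 2-fold. The median share of UMIs on mitochondrial genes per cell was 1.51% in young, 1.95% in aged and 1.88% in metformin members. Cholesterol synthesis genes were higher by sign in 12 of 13 cases (median 0.51), among them Cyp51, a sterol demethylase, at 46.2 and 88.9 CPM (log2 ratio 0.94, 0.39 to 1.49). Glycolysis genes were higher in 13 of 15 cases (median 0.29). The 18 nuclear genes of oxidative phosphorylation were split 10 to 8 (median 0.09). MHC class I genes were lower in 8 of 9 cases (median -0.42). Nonclassical monocyte genes were split 6 to 8 (median -0.06).

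Of 12 inflammatory cytokine and regulator genes, 9 were lower in aged members by sign and 2 by 2-fold, against 3.84% of all genes, with a median of -0.35. Within subcluster 1, where 3.24% of all genes were lower by 2-fold, 7 of 8 were lower, 2 by 2-fold (median -0.63). In the same cells, 6 of 8 chemokine genes were lower, 4 by 2-fold (median -0.68). In young and aged members as a whole, Il1b, the cytokine interleukin 1 beta, stood at 2107 and 1213 CPM (log2 ratio -0.80, -0.92 to -0.68). Il1rn, its receptor antagonist, stood at 117 and 193 CPM in the same whole set (0.73, 0.37 to 1.08). Over all members, 7 of 13 chemokine genes were higher and 6 lower. Ccl2, the ligand of CCR2, stood at 866 and 1507 CPM (log2 ratio 0.80, 0.67 to 0.93), and its pools were at 979, 775 and 837 CPM and at 1836, 996 and 1451 CPM. Slpi, an inhibitor of neutrophil proteases, stood at 151 and 427 CPM (log2 ratio 1.50, 1.23 to 1.77). Among receptors for microbial sugars and dead cells, Clec4e and Clec4d were higher by 2-fold, against 2.42% of all genes. Their pattern recognition list had 7 of 9 genes higher (median 0.34). Within subcluster 1 its median was -0.037, with 3 of 7 genes higher and 1 lower by 2-fold.

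Spp1, which encodes the secreted matrix protein osteopontin, rested on few cells. It had UMIs in 18.9% of young, 19.1% of aged and 7.62% of metformin members. Young pools A, B and C stood at 1691, 1796 and 4079 CPM, aged pools at 5779, 293 and 4748 CPM and metformin pools at 314, 3956 and 1754 CPM. The ranges overlapped in full. The log2 ratio of aged to young was 0.69 (0.61 to 0.77), and without pool A it was -0.05. One metformin cell held 66.5% of that condition's Spp1 UMIs. The 17 genes of the Spp1 macrophage list had a median of 0.07 with age and -0.18 (16 measured) with metformin.

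Several classical monocyte genes were lower in metformin than in untreated aged members. Chil3 was at 737, 796 and 602 CPM in metformin pools A, B and C, below each of the aged pools at 1575, 2124 and 1348 CPM (log2 ratio -1.20, -1.39 to -1.01). Ly6c2 stood at 157, 283 and 259 CPM against 605, 542 and 409 CPM, again apart (log2 ratio -1.14, -1.48 to -0.82). Plac8 had a log2 ratio of -0.55 (-0.66 to -0.45) and Hp of -0.39 (-0.62 to -0.16). For Ifitm6 (-0.13, -0.36 to 0.10) and Ccr2 (-0.13, -0.34 to 0.08) the interval included 0. Of the 15 classical genes, 12 were lower with metformin and 3 by 2-fold (Ly6c2, Chil3 and Vcan), against 2.17% of all genes, with a median of -0.37. The medians of pools A, B and C were -0.42, -0.59 and -0.04, so pool C lay near 0. In subcluster 1 alone the list's median was -0.175. There 12 of 15 genes were lower and 1 by 2-fold, against 2.5% of its genes. Within subcluster 1, Chil3 had a log2 ratio of -0.68 (-0.90 to -0.46) and Ly6c2 of -0.71 (-1.07 to -0.35).

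Most nonclassical monocyte genes were higher with metformin over all members. Of 14 genes, 12 were higher and 4 by 2-fold (Eno3, Adgre4, Cd300e and Cx3cr1), against 3.15% of all genes, with a median of 0.57. Cx3cr1, the receptor of the adhesive chemokine fractalkine, stood at 221, 256 and 130 CPM in aged and at 502, 392 and 356 CPM in metformin pools, which did not overlap (log2 ratio 1.05, 0.70 to 1.40). Within subcluster 1 its log2 ratio was 0.83 (0.36 to 1.30). Adgre4, an adhesion receptor of nonclassical monocytes, stood at 61.3, 147 and 51.8 CPM and at 220, 193 and 188 CPM (log2 ratio 1.34, 0.81 to 1.89). By pool, the median of the list was 1.23, -0.42 and 1.06 in A, B and C, so pool B went the other way. Pool B was also the one with equal counts of subcluster 2 cells, but 8 leading genes of that subcluster are on this list. A part of those counts in the list's median was not tested. Within subcluster 2, the nonclassical monocyte-like cells, 6 of 14 genes were higher and none by 2-fold (median -0.18), and within subcluster 1 none of 10 was higher by 2-fold (median 0.50).

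Genes of resident macrophages and several MHC class II genes were higher with metformin than in untreated aged members. Apoe stood at 3169, 4387 and 6387 CPM in metformin pools, each above the aged pools (log2 ratio 1.16, 1.06 to 1.27). It was also higher within subcluster 1 (log2 ratio 0.73, 0.55 to 0.91). H2-Eb1 stood at 612, 1278 and 938 CPM (log2 ratio 1.37, 1.13 to 1.61), and the highest aged pool was at 575 CPM. Without subclusters 7 and 8 it had a log2 ratio of 0.35 (0.04 to 0.65). C1q-positive cells went the other way, with 7786 CPM of H2-Eb1 in untreated aged and 5071 CPM in metformin ovaries. In Dendritic cell I it stood at 7200 and 9457 CPM. In the members, all 6 measured resident macrophage genes were higher, 3 by 2-fold, against 3.15% of all genes, with a median of 1.03. Of 7 class II genes, 6 were higher but only H2-Eb1 by 2-fold, with a median of 0.77. Within subcluster 1 no gene of either list was higher by 2-fold (class II median 0.26, resident median 0.41). Within subcluster 2 the 3 measured class II genes were all lower by 2-fold, against 3.34% of its genes (median -2.10). That value rests on 33 metformin and 14 aged cells, and no difference between the subclusters is read from it. Ms4a7, a membrane protein gene of macrophages, had 27 and 58 UMIs (log2 ratio 1.49, 0.81 to 2.21), and Pltp, which transfers phospholipids, 10 and 28 UMIs (1.88, 0.79 to 3.08). BC035044 had a log2 ratio of 1.79 (0.75 to 2.94). Without subclusters 7 and 8, the intervals of Ms4a7 (-0.63 to 1.14) and Pltp (-0.16 to 2.45) included 0. Pf4 had 21 and 77 UMIs (log2 ratio 2.27, 1.55 to 3.04). One cell held 70.1% of the metformin UMIs of Pf4, without that cell the log2 ratio was 0.55, and as a mean over cells of CPM it was -1.22.

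Single genes of proteases, chemokines and lectins were lower with metformin, while the list of antimicrobial and granule genes had 1 of 5 genes lower by 2-fold, Prtn3, and a median of -0.45. Prtn3 had 41 UMIs in aged and 3 in metformin members (log2 ratio -3.38, -5.72 to -1.73). Mmp8, the collagenase of myeloid granules, had 31 and 4 UMIs (log2 ratio -2.56, -4.53 to -1.06), and Mmp19, another matrix protease, 28 and 2 UMIs (-3.42, -6.53 to -1.43). Neutrophils, whose genes the naming rule did not screen out, had 310 CPM of Mmp8 in untreated aged and 94.6 CPM in metformin ovaries. Prtn3 and Mmp8 kept their sign within subcluster 1, at -4.54 (-9.88 to -1.98) and -2.47 (-4.83 to -0.77). Cxcl2, a neutrophil attractant, stood at 1824, 593 and 1752 CPM in aged and at 565, 398 and 265 CPM in metformin pools (log2 ratio -1.92, -2.16 to -1.68). The aged pool B came near the highest metformin pool. Within subcluster 1 its log2 ratio was -0.70 (-1.60 to 0.13). Il1rn had a log2 ratio of -1.76 (-2.45 to -1.12) and Clec4d, a lectin receptor, of -1.37 (-1.84 to -0.92). Within subcluster 1 they had 4 and 4 UMIs and 16 and 13 UMIs. Cstb, the protease inhibitor cystatin B, stood at 1537 and 761 CPM (log2 ratio -1.01, -1.20 to -0.83). Of 12 chemokine genes, 10 were lower, 4 by 2-fold, against 2.17% of all genes, with a median of -0.76. The medians of pools A, B and C were -0.83, -0.16 and -0.12, and within subcluster 1 the list was split 3 to 3 (median -0.17).

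**Figure D5:**
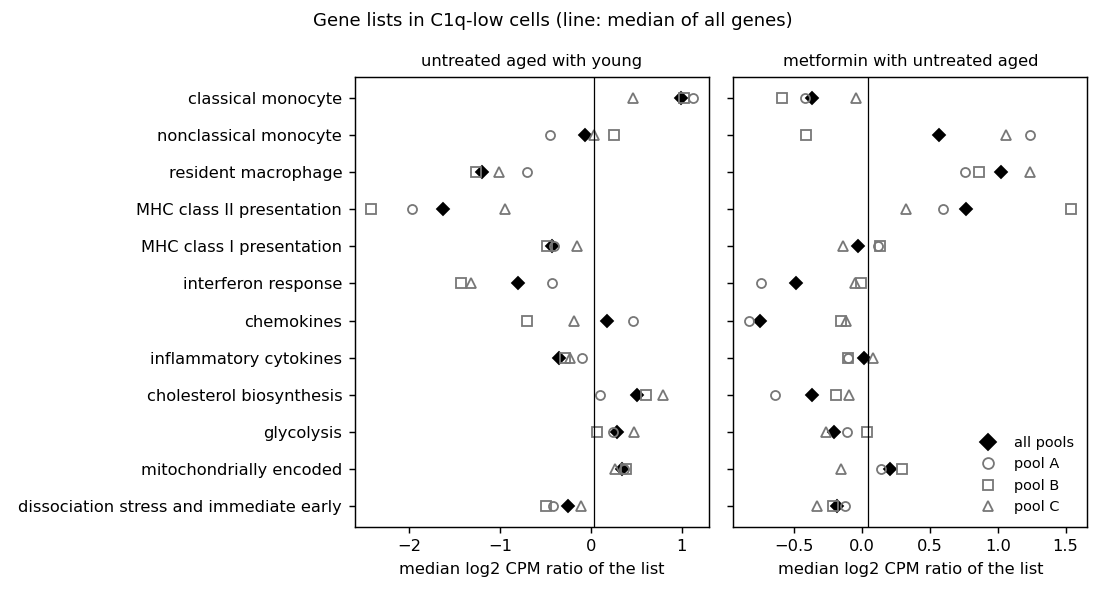
Median log2 CPM ratio (horizontal axis) of 12 gene lists (vertical axis) in C1q-low cells, for aged with young (left) and metformin with untreated aged (right), over all pools (diamonds) and by pool (symbols), with a line at the median of all genes. MHC class II presentation is lowest with age, at -1.63, and the resident macrophage list is highest with metformin, at 1.03.

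Interferon-induced genes were not closer to the young level with metformin. Of 13 measured, 12 were lower than in untreated aged members and 4 by 2-fold, against 2.17% of all genes, with a median of -0.49. The medians of pools A, B and C were -0.75, -0.01 and -0.05, so that only pool A stood away from 0. Isg15 stood at 7.84, 109 and 71.2 CPM in metformin pools (log2 ratio -1.11, -1.77 to -0.48), and pool B lay above the lowest aged pool. Ifit3 had 2 and Ifit2 had 1 UMI in metformin members. Hspa1a, at 34.3 CPM, and Ctse, at 0, also had metformin values near those of untreated aged cells. Genes tied to AMPK, the energy sensor on which metformin acts, gave a median of -0.39 over 6 genes, with none beyond 2-fold, but medians of 0.04, 0.02 and -0.13 in pools A, B and C. Atf3, a stress-induced transcription factor gene of this list, stood at 1211 and 699 CPM (log2 ratio -0.79, -0.99 to -0.60). Cholesterol synthesis genes were lower in 8 of 11 cases (median -0.37). Mitochondrially encoded genes were higher in 13 of 13 (median 0.20), but their median in pool C was -0.16.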

How the data were processed

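Cells of 3 multiplexed 10x pools were analysed. The authors deposited raw UMI counts for 14353 cells and 18789 genes, whole numbers per gene and cell, and, per the file headers, each cell's pool, condition and cell type name, which are neither counts nor ratios, and the percent of UMIs on mitochondrial genes. Reads were processed with Cell Ranger 3.0.2 on GRCm38 (mm10), per the submitters' processing notes. No cell was removed. The lowest deposited total was 500 UMIs, no doublet was marked in the deposited table, and no doublet caller was run. A barcode was shared between pools by 52 cells, 3 of them members.

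UMIs were summed per condition over the members, in genes with at least 20 UMIs in both conditions together, with 1 UMI added for calls and 3 UMIs in place of 0 for bounds. Exact intervals (SciPy 1.17.1) cover counting error. Subclusters came from scanpy 1.11.5 (1500 variable genes, 20 components, 15 neighbours, Leiden resolution 0.5). Genes were named when they had UMIs in at least 5 cells, an interval bound beyond 0.58 or -0.58 and 1 sign in every pool, 8 per direction. Left out were mitochondrial, ribosomal and haemoglobin genes, gene models and genes 5 times higher in another class. Classes of monocytes and macrophages, dendritic cells and neutrophils were not used for this last filter. A further 10 genes were always named, and list genes were taken from the 4 members with the most UMIs or named as called or to show a range. Coordinates are from GENCODE and RefSeq. The scripts were tested on simulated data. Members, lists and rules were chosen with earlier results of these data known.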

Additional observations from a re-analysis of the deposited data

How the results depend on the processing

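All 28 alternative values of the share ratios stayed within their main intervals, and Leiden resolutions 0.3 and 1.0 gave 6 and 10 subclusters in place of 8. Of the counts of genes beyond 2-fold, 44 of 60 stayed within 1.5 times the value given. With age, genes higher and lower numbered 109 and 155 without subclusters 7 and 8, 96 and 138 within subcluster 1 alone, and 28 and 43 with at least 100 UMIs per gene. Those lower numbered 129 in cells thinned to 1000 UMIs. With 5 UMIs added, 215 were higher and 81 lower, so that the balance turned from 167 higher and 265 lower. With metformin they numbered 55 and 50 thinned, 104 and 44 with 5 UMIs added, and 7 and 15 with at least 100 UMIs, and those higher 96 within subcluster 1. Leaving out each pool in turn gave 108 to 194 genes higher with metformin, the lowest without pool A. The 5 UMIs were added alike to genes of 573939 aged and 1429948 young UMIs, so they weighed more in aged CPM. With them the median log2 ratio with age was 0.168 in place of 0.040. Beyond this the cause was not tested, except that thinning and the higher minimum test fewer genes.

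Named genes reversed in 10 of 660 values and lists in 2 of 629. Leaving out each pool in turn gave -0.051 to 1.132 for Spp1 with age, the lowest without pool A. Within subcluster 1, values with age (1 UMI added) were -5.136 for Spp1, -2.36 for Gdf15 and 0.72 for H2-Eb1, with medians of 0.05 for MHC class II and -0.037 for pattern recognition. With metformin they were 0.70 for Spp1, -1.62 for Pf4, 0.70 for Il1rn and 0.42 for Clec4d. Pf4 was also reversed without subclusters 7 and 8, at -1.76, and as a mean over cells of CPM, at -1.22. The subsets by subcluster were added after seeing the data. No paired analysis was possible because each condition is 1 suspension and no test was made. Aged and metformin members, 115 and 105 cells, limit the precision, and genes under 20 UMIs are not detectable as changed at this depth.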
